A study of Homo sapiens with 6 samples.

Results

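The set described here is 39 genes of amino acid supply and of the response to amino acid shortage, read from the 46287 rows of a gene count table. They are 19 cytosolic aminoacyl-tRNA synthetase genes, 6 regulators of the stress response, 8 enzymes of amino acid synthesis and 6 amino acid transporter genes, chosen by name. The table came from bulk RNA sequencing of HaCat cells, a spontaneously immortalized human epidermal keratinocyte line. There were 3 libraries of cells labelled homozygous SDR42E1 knockout, made by CRISPR/Cas9 editing, and 3 libraries of wild-type control cells. Both groups were grown as monolayers in high-glucose medium with added glutamine, pyruvate and fetal bovine serum, and were harvested before confluence. SDR42E1 is a member of the short-chain dehydrogenase/reductase family, proposed by the submitters as a modulator of vitamin D levels, and the study asked what its loss does to the transcriptome. The labels call the replicates biological but do not say whether they are separate cultures, or whether the knockout line is 1 clone, so each p-value measures the spread between these libraries.

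Aminoacyl-tRNA synthetases join each amino acid to its transfer RNA. When an amino acid runs short, uncharged transfer RNA activates the kinase GCN2 (gene EIF2AK4), which phosphorylates the translation factor eIF2, and under that condition the transcription factor ATF4 is translated more while most proteins are translated less. ATF4, with partners of the C/EBP family, binds composite DNA elements and raises genes for amino acid synthesis, transport and transfer RNA charging. Because ATF4 itself is controlled largely at translation, its RNA level alone does not measure its activity. In mouse epidermis the transporter chain encoded by Slc3a2 is needed for normal wound repair.

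Knockout libraries held 11504473 to 13454544 counts and control libraries 12094896 to 16928201. The 39 genes took 0.799% to 0.801% of the counts in knockout libraries and 0.958% to 0.976% in control libraries. SDR42E1 RNA, the targeted gene, had 268, 265 and 237 counts in knockout libraries, against 650, 822 and 601 in control libraries (log2 fold change -1.16, SE 0.08, adjusted p = 2.69e-14 by edgeR's quasi-likelihood test), and its 30 chromosomal neighbours had a median of -0.67. All 15 keratinocyte markers examined, KRT5, KRT14 and TP63 among them, were detected and tested, with a summed level of 11460 to 12000 CPM (read counts scaled to a common library size) in knockout libraries and 9929 to 10590 CPM in control libraries. These markers moved both ways: 8 rose (53.3%) and 3 fell (20%), against 24.6% and 25.8% of all tested genes. KRT6A was at 2679.8 ± 78.5 CPM in knockout cells and 1120.2 ± 60.2 CPM in control cells. KRT5 was at 1709 ± 67.5 CPM in knockout cells and 2698 ± 124 CPM in control cells. The 8 fibroblast markers summed to 1.30 to 2.45 CPM in knockout libraries and 4.63 to 6.25 CPM in control libraries, with DCN and PDGFRA at 0. The 7 melanocyte markers summed to 19.5 to 23.7 CPM in knockout libraries and 24.3 to 25.3 CPM in control libraries, with TYR at 0, and the 8 immune markers to 8.31 to 9.94 CPM in knockout libraries and 5.83 to 8.91 CPM in control libraries, with CD3E and CD3D at 0. Most of the melanocyte sum was MITF, at 19.2 ± 2.60 CPM in knockout cells and 21.3 ± 0.372 CPM in control cells. Most of the immune sum was CD68, at 8.18 ± 0.120 CPM in knockout cells and 6.27 ± 1.39 CPM in control cells. The 5 endothelial markers summed to 1.92 to 2.66 CPM in knockout libraries and 3.65 to 4.28 CPM in control libraries. The part of these marker differences in the results was not tested.

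The genes differed in both directions. The largest falls were those of SLC7A5 and SLC3A2, which encode the light and heavy chains of the leucine transporter LAT1, followed by the alanyl-tRNA synthetase gene AARS1 and the serine synthesis gene PSAT1. ATF4 RNA and the stress regulators DDIT3, CHAC1 and SESN2 did not pass the threshold. All 39 genes passed the filter on low counts and were tested among 12293 genes with edgeR's quasi-likelihood test, with p adjusted by the Benjamini-Hochberg method over all genes and a threshold of 0.05. Adjusted p-values below are from this fit unless another setting is named. Under it, 22 of the 39 changed (56.4%), where 50.4% of all tested genes did. Of these, 9 rose (23.1%, against 24.6% of all tested genes) and 13 fell (33.3%, against 25.8%). Both shares lie near those of all tested genes, and the difference was not tested. Their median log2 fold change was -0.005, and that of all tested genes -0.004. A fall of at least 1.5-fold was seen in 4 of the 39, SLC7A5, SLC3A2, AARS1 and PSAT1, and a rise of that size in 1, ATF5. Among all tested genes 10.4% fell and 4.99% rose by as much. The libraries of the groups did not overlap in 22 of the 39 genes, 9 higher and 13 lower in knockout, against 56.5% of all tested genes, 27.5% higher and 29% lower.

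**Figure D1:**
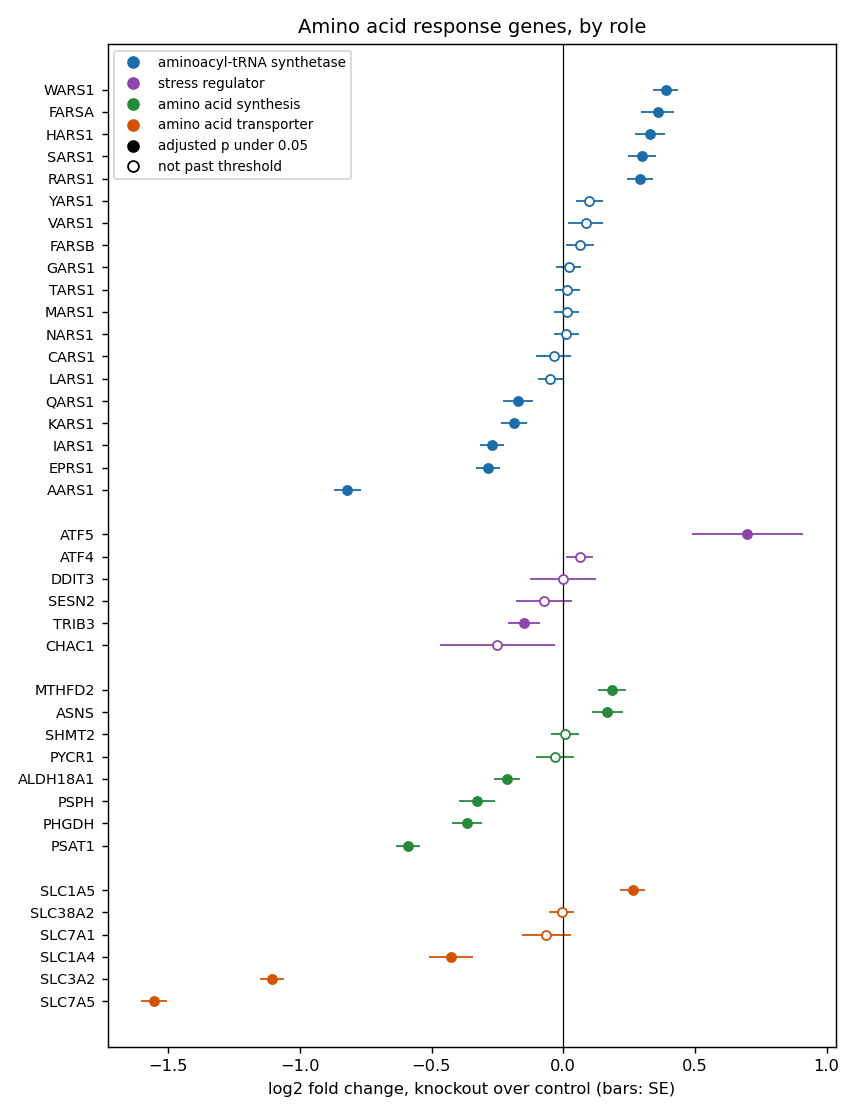
Log2 fold change of knockout over control for each of the 39 genes, grouped by role, with bars for the standard error; filled points passed an adjusted p of 0.05 and open points did not. SLC7A5 (-1.55) and SLC3A2 (-1.10) lie furthest to the left, ATF5 (0.70) furthest to the right, and the synthetases fall on both sides of 0.

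Levels per library are CPM scaled to the TMM-adjusted library size. ATF4, the central transcription factor of the response, had 391, 379.9 and 346 CPM in knockout libraries and 374, 353 and 343 CPM in control libraries. The groups overlapped, with a difference of 0.06 on the log2 scale (SE 0.05, adjusted p = 0.311). Without knockout replicate 3, the lowest of the knockout libraries, it was 0.12 with an adjusted p of 0.0331. ATF5, a related factor that is also induced in this response, was near the bottom of the measured range, with 5.71, 5.32 and 6.38 CPM in knockout libraries and 4.03, 3.07 and 3.65 CPM in control libraries. Each knockout library was above each control library, and ATF5 rose by 0.70 on the log2 scale (SE 0.21, adjusted p = 0.00543). Exons of ATF5 overlap those of NUP62 and IL4I1 on the opposite strand, so at this low level the rise is uncertain to the extent that their reads were counted in it.

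DDIT3, which encodes the stress factor CHOP, averaged 12.9 ± 1.12 CPM in knockout cells and 12.9 ± 1.21 CPM in control cells (SD, n = 3 each). Its exons overlap those of MARS1 on the opposite strand, and the sources used here do not state whether reads were counted by strand. CHAC1, an enzyme that breaks down glutathione, averaged 4.08 ± 0.902 CPM in knockout cells and 4.82 ± 0.638 CPM in control cells (adjusted p = 0.360). SESN2, a leucine sensor that restrains the growth kinase complex mTORC1, averaged 18.2 ± 2.11 CPM in knockout cells and 19.1 ± 1.22 CPM in control cells (adjusted p = 0.606). TRIB3, a pseudokinase that feeds back on ATF4, fell by 0.15 on the log2 scale (SE 0.06, adjusted p = 0.0386). Its values were 76.8, 84.6 and 77.9 CPM in knockout libraries and 93.8, 86.1 and 85.8 CPM in control libraries, so the nearest libraries of the groups were close. The TRIB3 call was lost with DESeq2 (adjusted p = 0.0856) and without knockout replicate 1 (0.1515), knockout replicate 3 (0.1015), control replicate 1 (0.193) or control replicate 2 (0.0523).

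**Figure D2:**
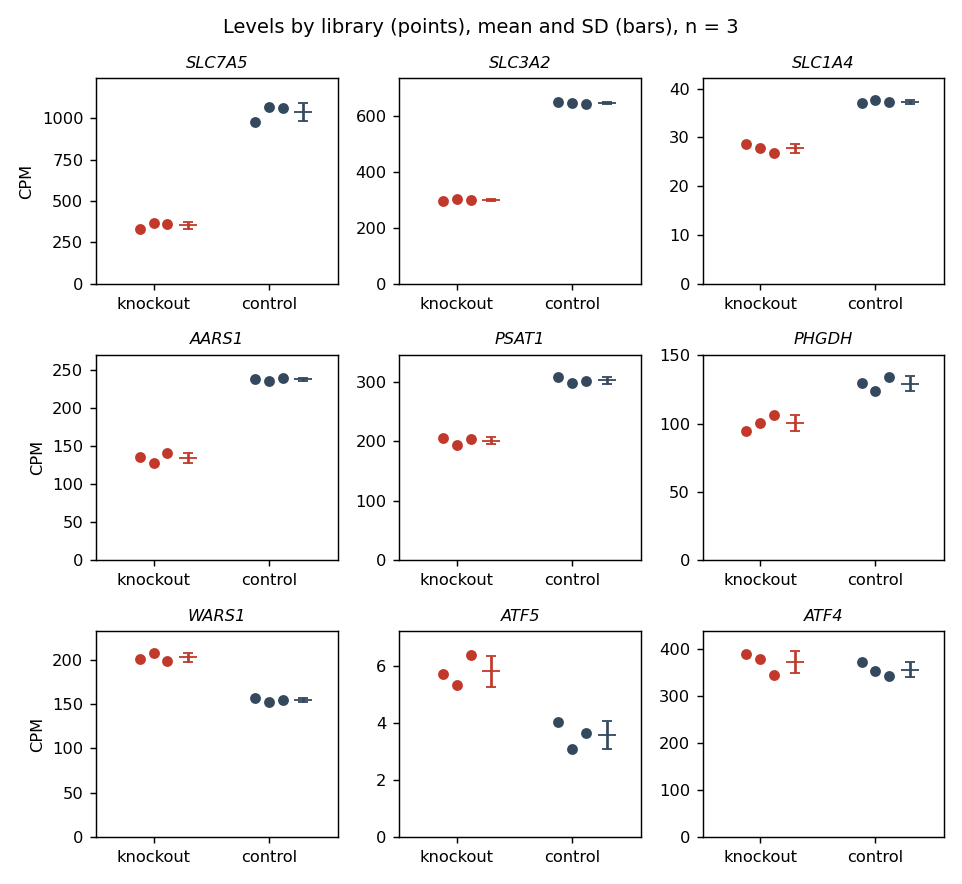
Level in CPM of 9 of the 39 genes in each library, knockout at left and control at right in each panel, with the mean and SD of 3 libraries beside the points. For SLC7A5, SLC3A2, SLC1A4, AARS1, PSAT1 and PHGDH every knockout library lies below every control library, for WARS1 and ATF5 above, and for ATF4 the groups overlap.

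Among the 19 cytosolic synthetase genes, 5 rose (26.3%), 5 fell (26.3%) and 9 did not pass, with a median log2 fold change of 0.02. These shares lie near those of all tested genes, of which 24.6% rose and 25.8% fell. AARS1, which charges alanine, changed most. It had 136, 128 and 141 CPM in knockout libraries and 238, 237 and 240.3 CPM in control libraries, with no overlap, a log2 fold change of -0.82 (SE 0.05) and an adjusted p of 1.50e-16. AARS1 occupies chromosome 16, 70252295 to 70289543 (GRCh38, minus strand), on the long arm that also holds SDR42E1. The other falls were smaller. EPRS1, a joined synthetase for glutamate and proline, had 467, 448 and 459 CPM in knockout libraries and 566, 559 and 550.3 CPM in control libraries (log2 -0.29, SE 0.05). IARS1, for isoleucine, averaged 767 ± 24.6 CPM in knockout cells and 925 ± 36.6 CPM in control cells (log2 -0.27, SE 0.05). KARS1, for lysine, changed by -0.19 (SE 0.05, adjusted p = 0.00182) and QARS1, for glutamine, by -0.17 (SE 0.06, adjusted p = 0.0131). QARS1 no longer passed without knockout replicate 3 (log2 -0.12, adjusted p = 0.0987) or without control replicate 3 (log2 -0.16, adjusted p = 0.0502).

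The 5 synthetase genes that rose did so by less than 1.5-fold. WARS1, for tryptophan and also known as an interferon-induced gene, had 201, 208 and 199 CPM in knockout libraries and 157, 153 and 155 CPM in control libraries (log2 0.39, SE 0.05, adjusted p = 1.54e-08). FARSA, the catalytic subunit of the phenylalanine enzyme, had 126, 137 and 129 CPM in knockout libraries and 114, 93.0 and 99.5 CPM in control libraries (log2 0.36, SE 0.06, adjusted p = 1.64e-05). Its partner subunit FARSB averaged 152 ± 4.66 CPM in knockout cells and 145 ± 9.16 CPM in control cells, with overlapping groups and an adjusted p of 0.321. Per kilobase of merged exons, the ratio of FARSA to FARSB was 1.19 ± 0.0581 in knockout libraries and 0.973 ± 0.0629 in control libraries (SD, n = 3 each). HARS1 for histidine (log2 0.33, SE 0.06), SARS1 for serine (0.30, SE 0.05) and RARS1 for arginine (0.29, SE 0.05) were the other rises, each with no overlap between the groups. Exons of HARS1 overlap those of its mitochondrial counterpart HARS2 on the opposite strand, and HARS2 itself was at 0.05 on the log2 scale (adjusted p = 0.539).

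The 9 synthetase genes that did not pass, those for cysteine, glycine, leucine, methionine, asparagine, threonine, valine and tyrosine and FARSB, had log2 fold changes of -0.05 to 0.10 with standard errors of 0.05 to 0.07. YARS1, the highest of these at 0.10, passed without control replicate 1 (log2 0.15, adjusted p = 0.0295). Synthetases fall into classes I and II by the fold of their catalytic domain. Of 9 class I genes 2 rose and 2 fell, of 9 class II genes 3 rose and 2 fell, and EPRS1, which holds a domain of each class, fell. Several cytosolic synthetases are bound together in a multi-synthetase complex. Of the 7 genes of its members in this set, EPRS1, IARS1, KARS1 and QARS1 fell, RARS1 rose and LARS1 and MARS1 did not pass (median log2 -0.17). Of the 12 outside it 1 fell and 4 rose (median 0.08). The splits by class and complex were chosen after the values were seen, and the difference between their parts was not tested. Of all tested genes 24.6% rose and 25.8% fell.

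The synthesis genes had 2 rises (25%) and 4 falls (50%) among 8, against 24.6% and 25.8% of all tested genes. The difference was not tested. All 3 enzymes of serine synthesis fell. These are PHGDH, PSAT1 and PSPH. PHGDH, the first enzyme of that route, had 94.7, 100.4 and 106 CPM in knockout libraries and 130.1, 124 and 134 CPM in control libraries (log2 -0.36, SE 0.06, adjusted p = 9.32e-07). PSAT1, the second, had 205, 195 and 203 CPM in knockout libraries and 308, 298 and 302 CPM in control libraries (log2 -0.59, SE 0.05, adjusted p = 4.01e-13). PSPH, the last, had 48.2, 45.2 and 47.4 CPM in knockout libraries and 59.4, 57.0 and 60.2 CPM in control libraries (log2 -0.33, SE 0.07). In none of the 3 did the groups overlap. Summed, they reached 349 ± 8.28 CPM in knockout libraries and 491 ± 10.7 CPM in control libraries, a difference of -29.0%.

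SHMT2 and MTHFD2 pass serine carbon into the mitochondrial folate cycle. SHMT2 averaged 177 ± 13.1 CPM in knockout cells and 176 ± 5.61 CPM in control cells, with overlapping groups. MTHFD2 rose, with 178, 163 and 174 CPM in knockout libraries and 161, 141 and 152 CPM in control libraries (log2 0.18, SE 0.05, adjusted p = 0.00413; 0.0778 without control replicate 2). ASNS, which makes asparagine and is a classical ATF4 target, had 108, 91.7 and 99.5 CPM in knockout libraries and 90.9, 85.7 and 89.5 CPM in control libraries (log2 0.17, SE 0.06, adjusted p = 0.0195). The ASNS call was lost with upper-quartile scaling (adjusted p = 0.0545), without knockout replicate 1 (0.156) and without control replicate 2 (0.103). Of the proline enzymes, ALDH18A1 changed by -0.21 (SE 0.05, adjusted p = 0.000414) and PYCR1 stood at -0.03 on the log2 scale (adjusted p = 0.742).

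The 6 transporter genes had 3 falls (50%) and 1 rise (16.7%), against 25.8% and 24.6% of all tested genes. The remaining 2 stayed short of the threshold. How far these shares differ from those of all tested genes was not tested. SLC7A5, the light chain of LAT1 that carries leucine and other large neutral amino acids, had 329, 367 and 362 CPM in knockout libraries and 973, 1068 and 1063 CPM in control libraries. Its log2 fold change was -1.55 (SE 0.05, adjusted p = 1.23e-24), and 289 of the 12293 tested genes (2.35%) had a value as low or lower. SLC3A2, the heavy chain 4F2hc (CD98) that brings several light chains to the cell surface, had 297, 304 and 299.9 CPM in knockout libraries and 649, 647 and 642 CPM in control libraries. The difference was -1.10 on the log2 scale (SE 0.05, adjusted p = 1.30e-21). In both genes the groups were far apart in every library. Together the pair summed to 653 ± 23.3 CPM in knockout libraries and 1681 ± 51.3 CPM in control libraries. That difference of -1028 CPM stands beside -1355.5 CPM for all 39 genes, and the other 37 genes differed by -328 CPM (-4.19%).

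The other transporters moved less. SLC1A4, a carrier of alanine, serine and cysteine, had 28.6, 27.9 and 26.8 CPM in knockout libraries and 37.0, 37.7 and 37.3 CPM in control libraries (log2 -0.43, SE 0.08, adjusted p = 4.16e-05). SLC1A5, its relative that carries glutamine, rose, with 236, 249.7 and 249.8 CPM in knockout libraries and 200.2, 208 and 204 CPM in control libraries (log2 0.26, SE 0.05, adjusted p = 1.49e-05). SLC7A1, a carrier of arginine and lysine, had 174, 199 and 220.5 CPM in knockout libraries and 189, 211 and 221 CPM in control libraries, which overlapped (adjusted p = 0.608). SLC38A2, a carrier of small neutral amino acids known to be induced by amino acid shortage, averaged 578 ± 26.4 CPM in knockout cells and 580.0 ± 21.5 CPM in control cells (adjusted p = 0.936). The 4 transporters other than the pair summed to 1049 ± 45.8 CPM in knockout libraries and 1028 ± 40.6 CPM in control libraries.

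Other light chains that pair with SLC3A2 were read beside the pair. SLC7A11, the cystine carrier, averaged 120 ± 2.98 CPM in knockout cells and 130 ± 4.26 CPM in control cells (log2 -0.12, adjusted p = 0.0537); it passed with upper-quartile scaling (adjusted p = 0.0162), with a filter of 1 CPM in 3 libraries (0.04995) and with the replicate block (0.0329). SLC7A6, which exchanges arginine, rose by 0.18 on the log2 scale (adjusted p = 0.0377), although its groups overlapped; the call was lost with DESeq2, upper-quartile scaling and in 4 of the 6 fits that left out a library (adjusted p = 0.0719 to 0.150). SLC7A7 and SLC7A8 were near the floor of the measured range, at 0.644 ± 0.373 and 1.17 ± 0.340 CPM in knockout cells and 1.20 ± 0.651 and 1.21 ± 0.712 CPM in control cells.

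Promoters of the pair are shown because both genes fell in every knockout library. The sequences are from RefSeq (GRCh38.p14) and run from 250 bases before the annotated start to 50 after it, 5′ to 3′ on the gene's strand, in lower case with any match to the motif TGATGNAA or its reverse complement in capitals. That motif is the core of the composite element bound by ATF4 with C/EBP proteins. For SLC3A2, which has several annotated starts, the promoter with a match is shown. The SLC7A5 window holds 0 matches, which says only that these letters are not in it. The GC content was 62.7% for SLC3A2 and 80.3% for SLC7A5, and the median of all 35116 promoters in the table was 58.7%.
SLC3A2 (chr11:62881449-62881748, plus strand): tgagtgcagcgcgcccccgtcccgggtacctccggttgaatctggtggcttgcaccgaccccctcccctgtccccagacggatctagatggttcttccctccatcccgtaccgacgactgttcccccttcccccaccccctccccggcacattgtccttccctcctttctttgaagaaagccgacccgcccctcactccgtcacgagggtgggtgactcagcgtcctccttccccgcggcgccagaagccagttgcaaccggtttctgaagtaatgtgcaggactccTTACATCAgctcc
SLC7A5 (chr16:87869458-87869757, minus strand): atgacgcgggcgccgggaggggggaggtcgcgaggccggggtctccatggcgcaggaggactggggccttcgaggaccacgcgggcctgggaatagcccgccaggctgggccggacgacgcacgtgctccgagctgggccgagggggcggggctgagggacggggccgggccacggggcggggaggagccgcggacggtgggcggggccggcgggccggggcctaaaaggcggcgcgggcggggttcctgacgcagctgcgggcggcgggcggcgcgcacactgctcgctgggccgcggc

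Promoter sequences were found for 33 of the 39 genes, 50 promoters in all, since some genes have several starts. TGATGNAA, searched on both strands, was present in 13 of these 50 promoters (26.0%), against 1270 of 35116 in the whole table (3.62%), and in 13 of the 33 genes. The motif was in 7 of 16 synthetase genes (43.75%) and in 6 of 17 others (35.3%). The genes were chosen in part as ATF4 targets, so this share cannot be told apart from the choice of genes. The 13 matches are printed with up to 8 flanking bases on each side, read on the strand where the motif is TGATGNAA, with the motif in capitals. The search fixed every letter of the motif except N, so likeness within the capitals was set in advance.
AARS1 (chr16:70289678-70289701, plus strand): aacttggcTGATGCAActgcgaga
ASNS (chr7:97872461-97872484, minus strand): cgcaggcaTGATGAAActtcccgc
CARS1 (chr11:3057410-3057433, plus strand): ctagaatcTGATGCAAccgccgcc
CHAC1 (chr15:40953254-40953277, minus strand): ggcaggagTGATGCAAcggcaggg
GARS1 (chr7:30594837-30594860, minus strand): tcggagcaTGATGAAAtcgccgcg
IARS1 (chr9:92293695-92293718, plus strand): cacggaggTGATGCAAcgcgctga
MARS1 (chr12:57488056-57488079, minus strand): tccctcgcTGATGCAAccggaacc
NARS1 (chr18:57621807-57621830, minus strand): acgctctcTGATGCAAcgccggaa
SLC1A4 (chr2:64989384-64989407, minus strand): gctggagaTGATGCAAacgggagc
SLC1A5 (chr19:46784896-46784919, minus strand): gaagtggcTGATGCAAgctgtcca
SLC3A2 (chr11:62881728-62881748, minus strand): ggagcTGATGTAAggagtcct
SLC7A1 (chr13:29595666-29595689, minus strand): cgcactgcTGATGAAAcctggcgc
TARS1 (chr5:33440959-33440982, minus strand): ggaccagcTGATGCAAtcgaaagg
On the gene's strand the first base of the match lay between -209 and 37 bases from the annotated start, which is position 0. Of the 13 genes with a match, 4 fell (SLC3A2, AARS1, SLC1A4 and IARS1), 2 rose (SLC1A5 and ASNS) and 7 did not pass, with a median log2 fold change of -0.04. Of the 20 without one, 8 fell, 7 rose and 5 did not pass, with a median of -0.003. Of all tested genes 25.8% fell and 24.6% rose. The motif is a description of these windows and shows no binding.

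Because CPM do not allow for length, levels between genes were compared as TPM, which are CPM divided by merged exon length and rescaled to a common total. In knockout cells ATF4 stood highest, at 570.4 ± 21.3 TPM, followed by NARS1 at 431 ± 13.1 and IARS1 at 399.6 ± 5.96, whose spread overlapped that of KARS1 at 395 ± 11.9 TPM. In control cells SLC7A5 stood highest, at 874 ± 51.1 TPM, apart from ATF4 at 569 ± 20.7 and PSAT1 at 555 ± 6.74 TPM, which lay within each other's spread. SLC7A5 was at rank 11 in knockout cells, at 287 ± 21.4 TPM, within the spread of TARS1 above it and SLC1A5 below it. SLC3A2 was at rank 13 in knockout cells, at 224 ± 6.33 TPM, against rank 5 in control cells, at 500.2 ± 2.35 TPM. Per length, SLC7A5 exceeded SLC3A2 by 1.28 ± 0.0638 times in knockout libraries and 1.75 ± 0.0957 times in control libraries (SD, n = 3 each). ATF5 and CHAC1 were lowest in both groups, at 7.58 ± 0.898 and 7.67 ± 1.85 TPM in knockout cells and 4.86 ± 0.634 and 9.39 ± 1.30 TPM in control cells.

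**Figure D3:**
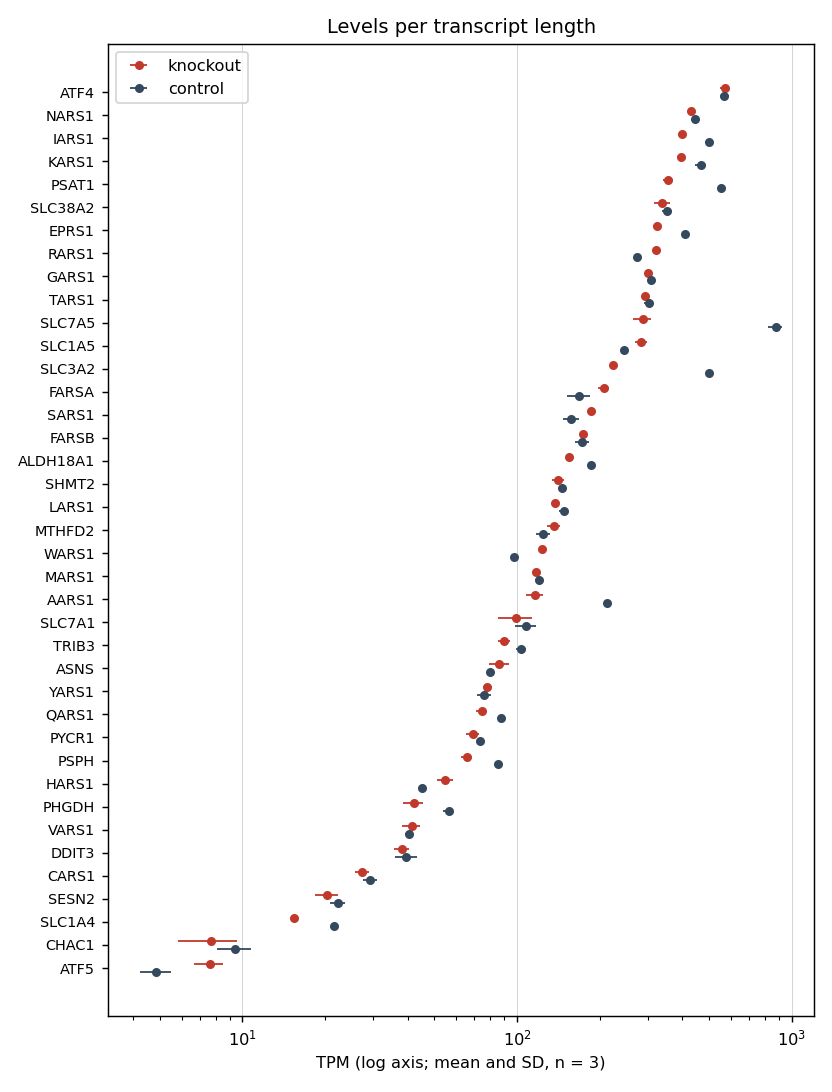
Level in TPM (log axis) of the 39 genes, ordered from the highest in knockout cells down, with knockout points above control points and bars for the SD of 3 libraries. SLC7A5, SLC3A2, AARS1 and PSAT1 show wide gaps between the groups, and ATF4 stands at about the same level in both.

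In some stretches of the genome neighbouring genes were lower together, so each gene was set beside its neighbours, meaning the tested genes within 5 Mb on either side whose mean log2 CPM was 2 or more. Around SLC7A5, on chromosome 16 near SDR42E1 (87830023 to 87869488, GRCh38, minus strand), the 54 neighbours lay at a median of -0.69 on the log2 scale, and each was below 0. SLC7A5 lay 0.86 below that median, and 3 of the 54 were as low or lower. SLC3A2 is on chromosome 11 (62856102 to 62888875, plus strand). Its 167 neighbours had a median of 0.08, and 2 of them were as low or lower. AARS1 lay 0.55 below the median of its 89 neighbours (-0.27), of which 3 were as low or lower. KARS1, also on chromosome 16, was higher than its neighbours' median of -0.35, and EPRS1 (-0.25) and IARS1 (-0.21) lay within 0.1 of theirs.

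The serine genes are spread over different chromosomes. PSAT1, on chromosome 9, had 13 neighbours with a median of -0.25, and 2 were as low or lower. PHGDH, on chromosome 1, had 21 neighbours with a median of 0.13, none as low. PSPH, on chromosome 7, had 10 neighbours with a median of 0.30, none as low. ALDH18A1, on chromosome 10, was close to its neighbours' median of -0.19. In 6 of the 39 genes (AARS1, EPRS1, IARS1, KARS1, PSAT1 and SLC7A5) the neighbours' median was -0.2 or lower, and all 6 fell. In 1, PSPH, the neighbours' median was 0.2 or higher, and PSPH fell against that direction. Leaving these 7 out, the falls numbered 6 of 32 and the rises 9, against 13 falls and 9 rises among all 39. Of all tested genes 25.8% fell and 24.6% rose. How much of these falls goes with chromosome position was not tested.

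**Figure D4:**
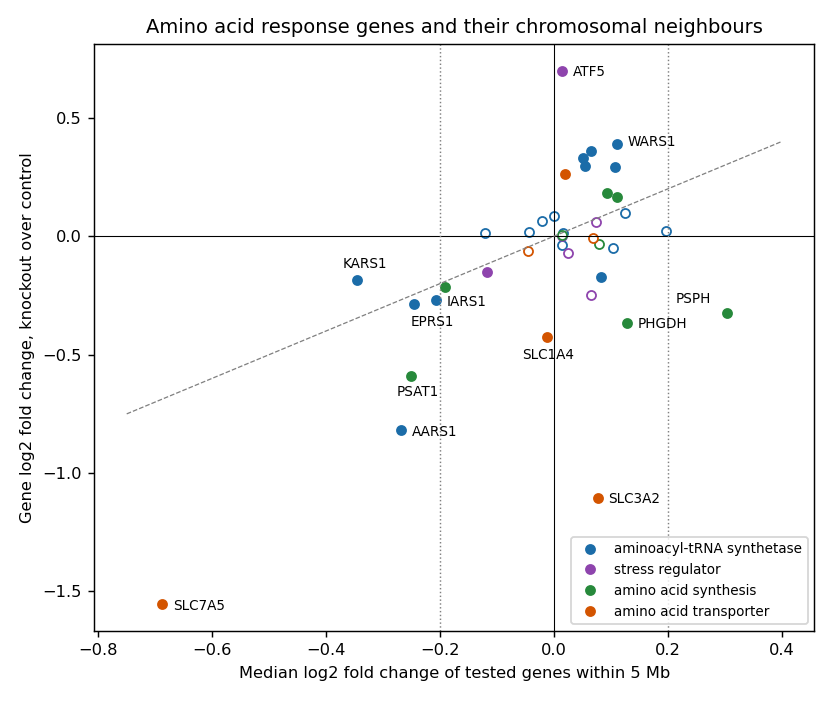
Log2 fold change of each of the 39 genes (vertical axis) against the median of the tested genes within 5 Mb (horizontal axis), with filled points past an adjusted p of 0.05, dotted lines at -0.2 and 0.2 and a dashed line where both are equal. SLC3A2, PHGDH and PSPH lie below 0 where their neighbours lie above it, and SLC7A5 and AARS1 lie below neighbours that were themselves lower.

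Related genes place the set in its pathway. Their counts are given beside the shares of all tested genes, of which 24.6% rose and 25.8% fell. The difference of each list from these shares was not tested. Of 16 genes for eIF2, its kinases, its exchange factor eIF2B and its phosphatase subunits, 8 rose (50%) and 2 fell (12.5%). Their median log2 fold change was 0.14, against -0.004 for all tested genes. EIF2S1, the eIF2 subunit that the kinases phosphorylate, rose by 0.38 (SE 0.05), the exchange factor gene EIF2B3 by 0.53 (SE 0.07) and PPP1R15A, the stress-induced phosphatase subunit GADD34, by 0.43 (SE 0.08). EIF2AK4, which encodes GCN2, averaged 222 ± 4.71 CPM in knockout cells and 191 ± 5.83 CPM in control cells (log2 0.21, SE 0.05, adjusted p = 0.000294), and its activator GCN1 rose by 0.24 (SE 0.05). RNA levels do not measure the activity of these kinases.

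Of 17 further ATF4 targets 12 were tested, of which 2 rose (16.7%) and 5 fell (41.7%), with a median of -0.20. JDP2, a repressor of the AP-1 and ATF family, averaged 3.32 ± 0.553 CPM in knockout cells and 10.2 ± 0.764 CPM in control cells (log2 -1.61, SE 0.18). DDIT4, an inhibitor of mTORC1, changed by -0.65 (SE 0.07) among neighbours with a median of -0.20, the alanine aminotransferase gene GPT2, on chromosome 16 among neighbours with a median of -0.37, by -0.66 (SE 0.08), and CTH, an enzyme of cysteine synthesis, by -0.59 (SE 0.14). ATF3, a stress factor downstream of ATF4, had 26.6, 17.6 and 15.6 CPM in knockout libraries and 31.0, 33.6 and 48.7 CPM in control libraries (log2 -0.92, SE 0.30). It did not pass (adjusted p = 0.0684) but did with DESeq2 (0.00893), without knockout replicate 1 (0.0126) and without control replicate 3 (0.0410).

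Of 20 tested genes of one-carbon and amino acid metabolism outside the set, 2 rose (10%) and 10 fell (50%), with a median of -0.15. ASS1, which makes the precursor of arginine from citrulline, averaged 71.8 ± 4.46 CPM in knockout cells and 160.1 ± 2.37 CPM in control cells (log2 -1.16, SE 0.06; neighbours' median 0.01). SHMT1, the cytosolic relative of SHMT2, changed by -0.90 (SE 0.06) among neighbours with a median of -0.29, and GLUL, which makes glutamine, by -0.80 (SE 0.05) among neighbours with a median of -0.28. BCAT1, an aminotransferase of leucine, isoleucine and valine, changed by -0.55 (SE 0.05; neighbours' median 0.10). Of 14 tested transporters outside the set 6 rose (42.9%) and 2 fell (14.3%), with a median of 0.12. SLC1A3, a glutamate and aspartate carrier, averaged 45.8 ± 2.63 CPM in knockout cells and 148 ± 4.23 CPM in control cells (log2 -1.70, SE 0.06; neighbours' median 0.04), and SLC43A2, a leucine carrier independent of SLC3A2, changed by -0.65 (SE 0.18) among neighbours with a median of -0.27. SLC38A5, a glutamine carrier, rose by 0.44 (SE 0.05) and SLC6A15, a carrier of large neutral amino acids, by 0.97 (SE 0.25), at 4.85 ± 0.454 CPM in knockout cells and 2.49 ± 0.600 CPM in control cells.

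Of 17 mitochondrial synthetase genes 2 rose (11.8%) and 5 fell (29.4%), with a median of -0.05, where 24.6% of all tested genes rose and 25.8% fell. IARS2 (-0.50, SE 0.05) and TARS2 (-0.46, SE 0.08) lie on chromosome 1 among neighbours with medians of -0.25 and -0.35, and MARS2 rose by 0.66 (SE 0.08). Of 10 other genes of transfer RNA charging and export 5 rose (50%) and 0 fell, with a median of 0.16. Among these rises were the amidotransferase subunit gene GATC at 0.37 (SE 0.06) and its partner QRSL1 at 0.21 (SE 0.07). GATB, another subunit gene, did not pass (log2 -0.06, SE 0.10, adjusted p = 0.625). The complex scaffold genes AIMP1 and EEF1E1 rose by 0.23 (SE 0.06) and 0.21 (SE 0.07). AIMP2, another scaffold gene, did not pass (log2 0.06, SE 0.06, adjusted p = 0.426). The EEF1E1 call was lost without knockout replicate 1 (adjusted p = 0.0524) and without control replicate 3 (0.0710). Of 27 tested genes by which mTORC1 senses amino acids 5 rose (18.5%) and 7 fell (25.9%), with a median of 0.06. SESN3, a relative of SESN2, changed by -1.33 (SE 0.16) and the arginine sensor gene CASTOR1 by -0.88 (SE 0.22), and SEH1L and MIOS, of the GATOR2 complex, rose by 0.39 (SE 0.06) and 0.24 (SE 0.06).

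**Figure D5:**
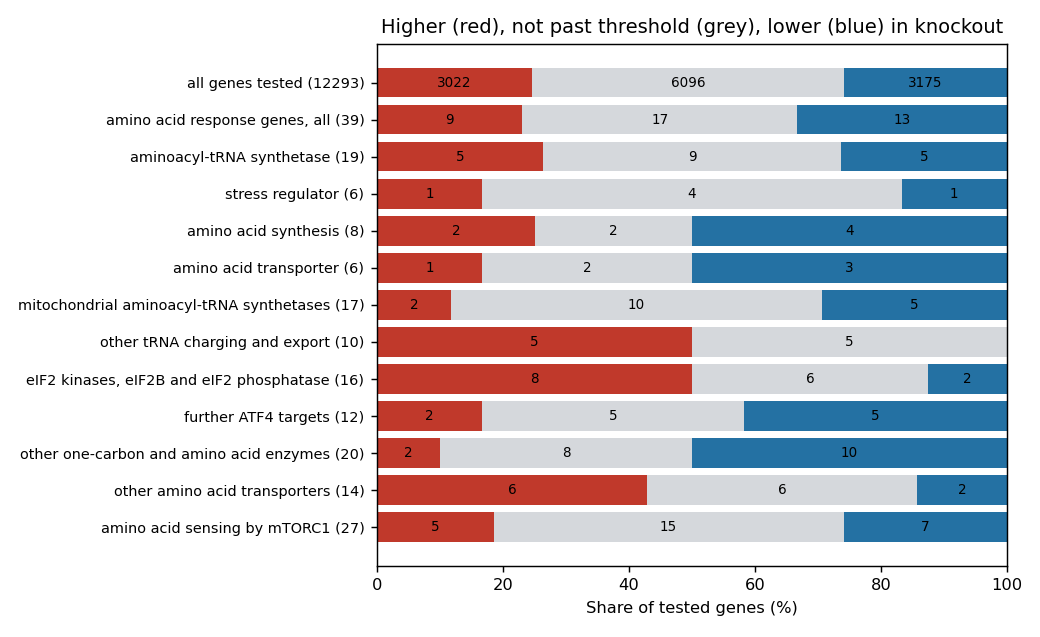
Share of the tested genes in each group that were higher (red), not past the threshold (grey) or lower (blue) in knockout cells, with counts on the bars and the number tested in brackets. The top bar holds all tested genes (24.6% higher, 25.8% lower), and the bar below it the 39 genes (23.1% higher, 33.3% lower).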

How the data were processed

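Whole-number gene counts, not normalized, were deposited by the authors in 1 table for all 6 libraries, which were made with a stranded total-RNA kit per the labels' protocols. Per the submitters' processing notes the build is GRCh38. The sources used here name no aligner, counter or strand setting. All 6 columns were matched by name. Counts were fitted with edgeR 4.0.16 in R 4.3.3: filterByExpr (minimum count 10, minimum total 15), TMM scaling and the robust quasi-likelihood F test of knockout against control, two-sided, Benjamini-Hochberg adjusted over 12293 genes. That test gave every adjusted p printed, except where another setting is named. Knockout is over control in every log2 fold change, and the SE is the absolute value over the square root of F. Depth limits precision most for ATF5 and CHAC1.

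Positions and merged exon lengths came from GENCODE 29, matched for 29919 of 46287 names. Exons of 11 of the 39 genes (HARS1, KARS1, MARS1, WARS1, YARS1, ATF5, DDIT3, SHMT2, MTHFD2, PYCR1 and SLC1A5) overlap another coding gene, and pseudogenes carry the names of several; 0 of these 33 pseudogenes were matched to a row, so values of AARS1, ASNS, ATF4, CARS1, FARSB, GARS1, KARS1, MTHFD2, NARS1, PSAT1, PSPH, RARS1, SLC7A5 and WARS1 are uncertain to the extent that reads of copies were counted in them. The fit was tested on simulated data. Chi-square over its degrees of freedom was 2.65 to 4.49 between libraries of a group, so none is a repeat of another within counting error. The 39 genes, the related lists and the alternatives (DESeq2 1.42.0, limma-voom 3.58.1, RLE and upper-quartile scaling, other filters, the replicate block, leaving out each library) were chosen with earlier results of these data known. Values per library were set out for genes changed by at least 0.5 on the log2 scale and for ATF4. They were also set out for further genes chosen after their values were seen. From each related list up to 4 of the genes of smallest adjusted p are named. AIMP2, ATF3, EIF2AK4, GATB, HARS2 and light chains of SLC3A2 were added. Some genes of the related and marker lists are not reported here by name.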

Additional observations from a re-analysis of the deposited data

How the results depend on the processing

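Of the 39 genes, 21 or 22 changed with DESeq2, limma-voom, RLE or upper-quartile scaling, no filter or a CPM filter, with 8 or 9 higher and 12 or 13 lower. With 1 library left out, 19 to 22 changed, 7 to 10 higher and 11 to 13 lower. The replicate block gave 22 (9 higher, 13 lower). Deviations of libraries with the same number correlated at 0.0155, -0.0889 and -0.0145, so no pairing by number was seen. With 3 libraries in each group these values cannot exclude that samples of the same number were handled together. Leaving out the 7 genes whose neighbours shifted, an alternative chosen with results known, gave 6 lower in place of 13. Under the 13 settings 22 genes kept direction and side of the threshold and 17 did not, as given beside the results or here. The sign turned in 11 genes, none past the threshold in either fit. With upper-quartile scaling, which moved the median of all genes to -0.0336 and put 43.4% of all calls on the higher side (48.8% with TMM), log2 values were -0.0086 for GARS1, -0.0162 for MARS1, -0.0178 for NARS1, -0.0135 for TARS1 and -0.0232 for SHMT2. DDIT3 was 0.00515 with DESeq2, 0.00425 with RLE scaling, 0.00444 without a filter and 0.00249 with the replicate block. With 1 library left out, log2 values ran from -0.0911 to 0.0159 for CARS1, -0.0170 to 0.0412 for MARS1, -0.0233 to 0.0468 for NARS1, -0.0119 to 0.0542 for TARS1, -0.0700 to 0.0668 for DDIT3, -0.137 to 0.0207 for SESN2, -0.0340 to 0.0687 for SHMT2, -0.0672 to 0.0342 for PYCR1, -0.144 to 0.0243 for SLC7A1 and -0.0347 to 0.0303 for SLC38A2. The cause was not tested. Of 32 related genes followed in settings added after the data were seen, 28 kept their call and ATF3, EEF1E1, SLC7A11 and SLC7A6 did not. SDR42E1 stayed between -1.22 and -1.12.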
